A study of Mus musculus with 12 samples.

Results

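The platelet-derived growth factor (PDGF) system of the mouse lung was described from its 6 genes, the ligand genes *Pdgfa*, *Pdgfb*, *Pdgfc* and *Pdgfd* and the receptor genes *Pdgfra* and *Pdgfrb*. They were found by their symbols through the Ensembl gene identifiers, and all 6 were present among the 16152 genes of the deposited count table and the 51825 genes of the deposited table of CPM (reads scaled to a fixed total of mapped reads). All 6 passed the filter on low counts. The tissue was whole lung of wild-type C57BL/6 mice of both sexes, with no treatment, at 2 embryonic ages (E15.5 and E18.5) and 2 postnatal ages (P5 and P8), named by the day. Each time-point had 3 replicate libraries, 12 in all. Within a time-point the replicates were littermates, so litter and age cannot be told apart, and the p-values measure the spread within a litter.

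PDGFs are dimeric growth factors that bind the receptor tyrosine kinases PDGFRα and PDGFRβ on the cell surface. PDGF-A and PDGF-C chains act mainly through PDGFRα, PDGF-B binds both receptors, and PDGF-D acts mainly through PDGFRβ. PDGF-C and PDGF-D are secreted with an inhibitory CUB domain that a protease must remove. In the developing lung, epithelial PDGF-A is known to act on PDGFRα-positive fibroblasts that become alveolar myofibroblasts, and endothelial PDGF-B is known to recruit PDGFRβ-positive pericytes to capillaries.

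From E18.5 to P5, the interval that holds birth, the ligand transcripts moved in opposite directions, with *Pdgfb* rising 2.37-fold, *Pdgfd* rising 2.78-fold and *Pdgfc* falling 6.94-fold. *Pdgfa* and *Pdgfrb* rose by smaller amounts over the same interval. *Pdgfra* was highest at E18.5, although its change from E18.5 to P5 did not pass an FDR of 0.05. The *Pdgfra* mean was lowest at P8, where it could not be distinguished from E15.5. Fold changes and FDR values are from edgeR's quasi-likelihood test on the counts, in a single fit over 15994 genes, and "rose" and "fell" are used for an FDR under 0.05. A gene is said to be past both cutoffs where the absolute log2 fold change was also above 1. In bulk tissue, fewer cells of a type and less RNA per cell cannot be told apart.

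The counted reads per library lay between 41337443 and 53901957. The labelled tissue was checked with the lung epithelial transcription factor *Nkx2-1*, the surfactant gene *Sftpc* and the lung mesenchymal transcription factor *Foxf1*, whose lowest mean levels at any time-point were 140 ± 4.54 CPM, 635 ± 119 CPM and 155 ± 9.14 CPM (SD, n = 3). Some libraries also had higher levels of genes typical of neighbouring tissues, and where those transcripts came from was not tested. The summed level of 6 thymus genes was 17.4 CPM in E15.5 replicate 2, 135 CPM in P8 replicate 1 and 268 CPM in P8 replicate 2, and at most 10.7 CPM in the other 9 libraries, with *Cd8b1* at 0 in all 3 E18.5 libraries. The summed level of 6 heart genes was 806 CPM in E15.5 replicate 1 and 917 CPM in E15.5 replicate 2, and at most 271 CPM elsewhere. For 6 skeletal muscle genes, the sums were highest in P8 replicate 1 at 399 CPM, P5 replicate 3 at 111 CPM and P8 replicate 2 at 103 CPM. The PDGF genes were therefore also fitted without the thymus-positive and without the heart-positive libraries, and those values are given beside the results that turn on them. From E15.5 to E18.5 without the heart-positive libraries, the log2 fold changes were 0.10 for *Pdgfrb* (0.25 with all libraries), 0.06 for *Pdgfb* (0.17) and 0.26 for *Pdgfd* (0.06), with edgeR FDR values of 0.58, 0.78 and 0.52. These fits leave P8 or E15.5 with 1 library, which is assumed to vary like the libraries of the other time-points.

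The regions upstream of *Pdgfc* and *Pdgfd* are shown because these ligand genes had the largest fall and the largest rise of the 6 genes from E18.5 to P5. Each sequence is the 250 bases before the RefSeq transcription start in the GRCm38.p6 build, 5′ to 3′ on the strand of the gene, and neither holds an annotated GENCODE exon. The *Pdgfc* window is chr3:81036166-81036415 on the plus strand, with 50.8% G and C. The *Pdgfd* window is chr9:6168236-6168485 on the plus strand, with 53.6% G and C, beside a median of 52.4% over all 32851 windows. Capitals mark matches to the motifs searched.
Pdgfc: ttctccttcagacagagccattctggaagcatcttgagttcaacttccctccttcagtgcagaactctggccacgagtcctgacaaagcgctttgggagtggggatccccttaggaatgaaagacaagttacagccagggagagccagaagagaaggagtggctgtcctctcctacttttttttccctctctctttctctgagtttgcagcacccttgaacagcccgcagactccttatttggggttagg
Pdgfd: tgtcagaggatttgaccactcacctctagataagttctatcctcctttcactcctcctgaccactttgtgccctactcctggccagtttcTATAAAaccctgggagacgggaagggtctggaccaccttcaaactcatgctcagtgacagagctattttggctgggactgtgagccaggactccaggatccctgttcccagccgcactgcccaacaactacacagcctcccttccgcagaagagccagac
The motifs searched, on both strands, were the Sp1-family box GGGCGG, the sites of Egr1 written as GCGTGGGCG and GCGGGGGCG, the TATA motif written as TATAAA, the NF-Y motif written as CCAAT and the AP-1 site written as TGACTCA. The single match was TATAAA in the *Pdgfd* window, beginning 160 bases before the RefSeq start, and 12.4% of all windows hold this motif on either strand. The *Pdgfc* window matched none of the 6, which stand in 32.7% (GGGCGG), 0.536% (GCGTGGGCG), 2.57% (GCGGGGGCG), 33.8% (CCAAT) and 4.46% (TGACTCA) of all windows. The 250-base window of *Pdgfra* also matched none of them. *Pdgfa* has 2 RefSeq starts, and GGGCGG was found 60 bases before the start at position 138994281 and, on the opposite strand, 93 and 86 bases before the start at position 138994944. In that order, 86 and 232 of the 250 bases of these windows lie in annotated exons, and 66.4% and 72.4% are G and C. No window of *Pdgfb* or *Pdgfrb* was used here.

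*Pdgfa* encodes the A chain, which is made by lung epithelium. The gene lies at chr5:138976014-138997370 on the minus strand (mm10, GENCODE vM21). In the order of replicates 1, 2 and 3, which is kept for all 6 genes, it was at 38.9, 43.0 and 41.2 CPM at E15.5 and 45.9, 43.3 and 45.2 CPM at E18.5. It was 61.3, 69.2 and 67.1 CPM at P5 and 75.7, 66.7 and 80.5 CPM at P8. The 6 embryonic libraries all lay below the 6 postnatal libraries, the P5 and P8 libraries overlapped, and each E18.5 library was above each E15.5 library by a small margin. *Pdgfa* rose from E18.5 to P5 1.56-fold (95% interval 1.39 to 1.75, log2 fold change 0.64, standard error 0.078, edgeR FDR = 1.1e-05), below the fold change cutoff. The time-points on each side of birth did not differ past the threshold, with log2 fold changes of 0.13 from E15.5 to E18.5 (edgeR FDR = 0.24) and 0.16 from P5 to P8 (edgeR FDR = 0.17). Without P8 replicate 2 the latter was 0.24 with an edgeR FDR of 0.045.

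The antisense gene *6330403L08Rik* shares 813 exon bases with *Pdgfa* on the opposite strand. It rose over the same interval, from 6.91 ± 1.39 to 11.3 ± 1.24 CPM (SD, n = 3), with a log2 fold change of 0.79 (edgeR FDR = 0.00042). Whether the counting used strand is not given in the sources used here, and without strand the reads over the shared bases cannot be assigned to either gene. Of the genes that overlap the other PDGF genes, those with a CPM value were at most at 0.099 CPM in any library, and *Gm41361*, antisense to *Pdgfb* with 0 shared exon bases, was not analysed here. *Pdgfra* shares 456 exon bases with *Gm42802* and 166 with *Gm42803* on the opposite strand, and 30 with *Mir7025*. *Pdgfc* shares 147 with the antisense gene *Gm16000*. The low CPM of these genes does not show whether reads over the shared bases were left uncounted.

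*Pdgfb* encodes the B chain, whose main source in growing vessels is the endothelium, and lies at chr15:79995874-80014977 on the minus strand. Its level was 52.7, 57.7 and 61.3 CPM at E15.5 and 69.2, 61.3 and 62.1 CPM at E18.5. After birth it was 141, 147 and 142 CPM at P5 and 179, 165 and 192 CPM at P8. The highest E15.5 and the lowest E18.5 library were both at 61.3 CPM after rounding, every P5 library was above every embryonic library, and every P8 library was above every P5 library. *Pdgfb* rose 2.37-fold from E18.5 to P5 (95% interval 2.1 to 2.67, log2 fold change 1.24, standard error 0.08, edgeR FDR = 4.6e-08), past both cutoffs. It was the only PDGF ligand gene that rose again from P5 to P8, by 0.30 on the log2 scale (standard error 0.079, edgeR FDR = 0.022). Single libraries decided that second call, since the FDR was 0.061, 0.073 and 0.098 without P5 replicates 1, 2 and 3, 0.087 and 0.061 without P8 replicates 1 and 3, and 0.059 without the thymus-positive libraries. The log2 fold change stayed between 0.24 and 0.40 in all alternative fits.

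*Pdgfc* encodes a chain that needs cleavage before it can activate PDGFRα, and lies at chr3:81036416-81214040 on the plus strand. Its level was 32.4, 32.2 and 31.3 CPM at E15.5 and 29.4, 24.5 and 29.8 CPM at E18.5. It was 3.31, 4.03 and 4.04 CPM at P5 and 3.71, 4.26 and 3.60 CPM at P8. The lowest embryonic library was far above the highest postnatal library, and the counts behind the postnatal values were 181 to 261 reads per library. From E18.5 to P5, *Pdgfc* fell by 2.79 on the log2 scale (standard error 0.108, edgeR FDR = 1.4e-09), a 6.94-fold lower level (95% interval 5.89 to 8.17). The 2 postnatal time-points differed by less than their spread (log2 fold change 0.01, 95% interval -0.22 to 0.24, edgeR FDR = 0.96). Before birth, its log2 fold change between E15.5 and E18.5 was -0.19 (95% interval -0.41 to 0.02, edgeR FDR = 0.19), although each E18.5 library lay below each E15.5 library.

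*Pdgfd* encodes the other chain with a CUB domain, a ligand of PDGFRβ, and lies at chr9:6168584-6378850 on the plus strand. Its level was 4.74, 7.55 and 4.94 CPM at E15.5 and 6.86, 6.24 and 4.76 CPM at E18.5. After birth it was 14.5, 15.53 and 16.8 CPM at P5 and 13.9, 17.5 and 19.1 CPM at P8. The embryonic libraries overlapped each other, the postnatal libraries overlapped each other, and the 2 sets did not. *Pdgfd* rose 2.78-fold from E18.5 to P5 (95% interval 2.09 to 3.7, log2 fold change 1.47, standard error 0.19, edgeR FDR = 1.8e-05), past both cutoffs. The log2 fold changes before and after this interval were 0.06 (edgeR FDR = 0.85) and 0.09 (edgeR FDR = 0.76), and with 251 to 384 reads per embryonic library *Pdgfd* had the widest intervals of the 6 genes.

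*Pdgfra* encodes PDGFRα, the receptor of alveolar myofibroblast precursors and other lung fibroblasts, and lies at chr5:75152292-75198215 on the plus strand. Its level was 137, 105 and 129 CPM at E15.5 and 183, 182 and 172 CPM at E18.5. After birth it was 144, 148 and 151 CPM at P5 and 92.9, 109 and 119 CPM at P8. Each E18.5 library was above each library of every other time-point, the P8 libraries were below all P5 libraries, and E15.5 and P8 overlapped. *Pdgfra* rose from E15.5 to E18.5 by 0.54 on the log2 scale (standard error 0.093, edgeR FDR = 0.0029), a 1.45-fold higher level (95% interval 1.26 to 1.67). It fell from P5 to P8 by 0.48 (standard error 0.093, edgeR FDR = 0.0066), a 1.4-fold lower level (95% interval 1.21 to 1.61). Without the thymus-positive libraries, which include 2 of the 3 P8 libraries, that log2 fold change was -0.34.

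Across birth, *Pdgfra* did not pass the threshold, with a log2 fold change of -0.19 from E18.5 to P5 (95% interval -0.39 to 0.01, edgeR FDR = 0.081), although the libraries did not overlap. It did pass in 5 alternative fits, with an FDR of 0.027 scaled by library size alone, 0.011 with only the libraries of the 2 time-points, 0.023 without E15.5 replicate 2, 0.0094 without the thymus-positive libraries and 0.029 without the heart-positive libraries. In all alternative fits the log2 fold change lay between -0.26 and -0.16. P8 could not be distinguished from E15.5 (log2 fold change -0.14, 95% interval -0.34 to 0.07, edgeR FDR = 0.2), and this comparison passed only without E15.5 replicate 2, at -0.24 with an edgeR FDR of 0.012. That library had the highest summed thymus and heart genes of the E15.5 libraries and was the lowest of them for both receptor genes.

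*Pdgfrb* encodes PDGFRβ, the receptor of pericytes and of vascular smooth muscle precursors, and lies at chr18:61045150-61085061 on the plus strand. Its level was 133, 109 and 141 CPM at E15.5 and 150, 151 and 154 CPM at E18.5. After birth it was 219.5, 248 and 224 CPM at P5 and 206, 204 and 241 CPM at P8. All postnatal libraries were above all embryonic libraries, and P5 and P8 overlapped. *Pdgfrb* rose 1.61-fold from E18.5 to P5 (95% interval 1.41 to 1.85, log2 fold change 0.69, standard error 0.09, edgeR FDR = 2e-05), below the fold change cutoff. Its log2 fold change from E15.5 to E18.5 was 0.25 with an edgeR FDR of 0.064, and it passed in 3 alternative fits, without E15.5 replicate 3 (0.33, FDR = 0.028), without P8 replicate 3 (0.27, FDR = 0.041) and with DESeq2 (0.26, FDR = 0.033). It was smaller without the heart-positive libraries (0.10, FDR = 0.58), without the thymus-positive libraries (0.15, FDR = 0.12) and without E15.5 replicate 2 (0.15, FDR = 0.19), a library that both of these sets hold. From P5 to P8 it was -0.11 (95% interval -0.30 to 0.09, edgeR FDR = 0.43).

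**Figure D1:**
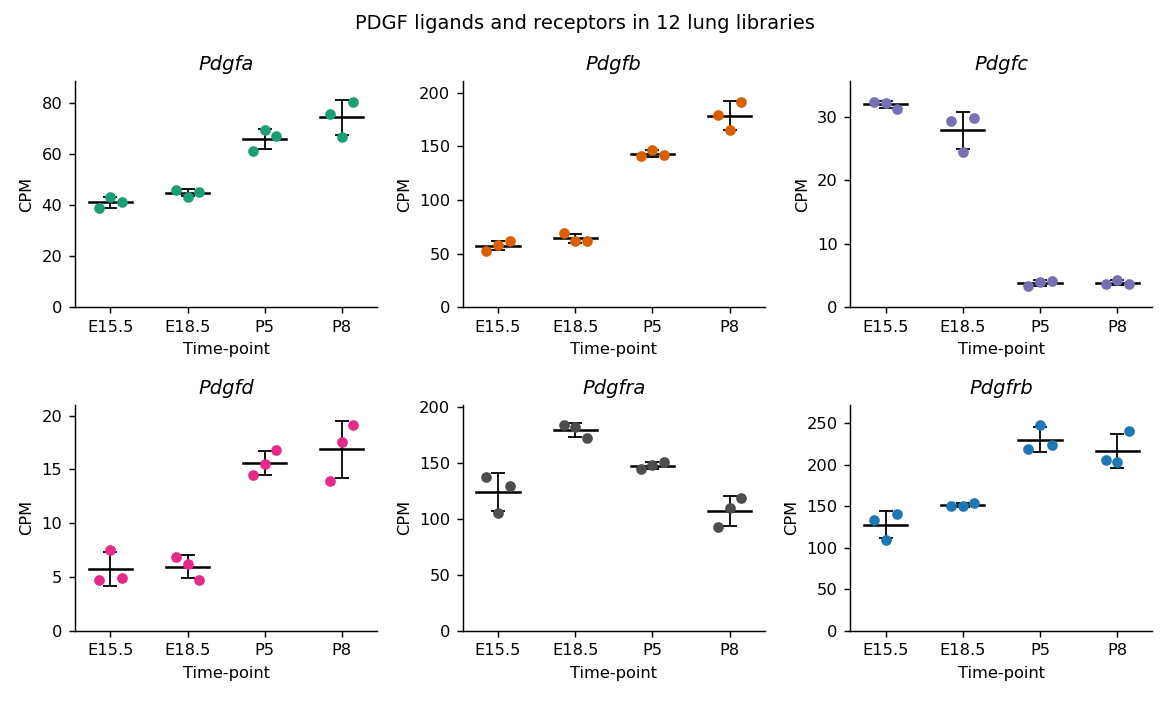
Level of each PDGF gene in CPM (vertical axes, each from 0) in the 3 libraries of E15.5, E18.5, P5 and P8. Points are libraries, black lines and bars are mean ± SD. *Pdgfa*, *Pdgfb*, *Pdgfd* and *Pdgfrb* were higher in all postnatal than in all embryonic libraries, *Pdgfc* was lower, and *Pdgfra* was highest at E18.5.

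The number of PDGF genes that changed was next read against all genes. From E15.5 to E18.5, 1 of the 6 (*Pdgfra*) passed an FDR of 0.05, beside 21.5% of all genes tested, and 0 of 6 passed both cutoffs, beside 3.04%. At an unadjusted p under 0.05 from edgeR, *Pdgfra* and *Pdgfrb* passed in that comparison. From E18.5 to P5, 5 of 6 passed the FDR, beside 71.1%, and 3 of 6 (*Pdgfb*, *Pdgfc* and *Pdgfd*) passed both cutoffs, beside 26.8%. From P5 to P8, 2 of 6 (*Pdgfb* and *Pdgfra*) passed the FDR, beside 18.0%, and 0 of 6 passed both cutoffs, beside 2.96%, with the same 2 genes under an unadjusted edgeR p of 0.05. Over the whole span from E15.5 to P8, 5 of 6 passed the FDR, beside 76.3%, and 3 of 6 passed both, beside 32.3%. DESeq2 and edgeR's likelihood ratio test also placed 0 of 6 past both cutoffs in the intervals before and after the one that holds birth. The PDGF genes' shares were not tested against those of all genes.

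In log2 CPM after TMM scaling, the libraries of the 2 time-points did not overlap for 4 of the 6 genes from E15.5 to E18.5, beside 38.3% of all genes. In the deposited CPM *Pdgfb* was separate there too, by less than the rounding of the values above. From E18.5 to P5 they did not overlap for 6 of 6, beside 77.5%. They did not overlap for 2 of 6 from P5 to P8, beside 40.2%, and for 5 of 6 from E15.5 to P8, beside 77.2%. Over the whole span, *Pdgfb* rose 3.29-fold (log2 fold change 1.72, edgeR FDR = 2.3e-09), *Pdgfd* 3.09-fold (1.63, edgeR FDR = 5.8e-06, and 2.06 without the thymus-positive libraries), *Pdgfa* 1.91-fold (0.93, edgeR FDR = 2.8e-07) and *Pdgfrb* 1.78-fold (0.84, edgeR FDR = 2.8e-06). *Pdgfc* ended 7.86-fold lower (log2 fold change -2.98, 95% interval of the fold 6.67 to 9.27, edgeR FDR = 4.7e-10). *Pdgfa* was close to the fold change cutoff over this span, and its log2 fold change was 1.09 without the thymus-positive libraries.

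**Figure D2:**
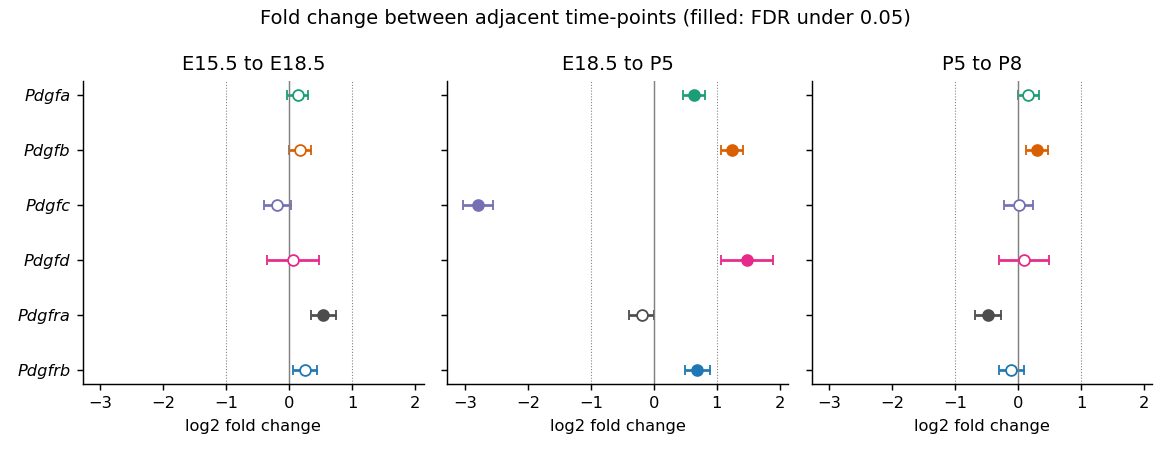
log2 fold change (horizontal axis) of the 6 PDGF genes between adjacent time-points, with 95% intervals from edgeR. Filled points have an FDR under 0.05 and dotted lines mark the fold change cutoff of 1. The changes from E18.5 to P5 ran from -2.79 for *Pdgfc* to 1.47 for *Pdgfd*, and in the other intervals every value lay between the dotted lines.

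Levels of the PDGF genes were ranked after division by the length of their merged exons, in CPM per kb (exons of GENCODE vM21, where the authors counted on release M14). The count ratios, marker sums and percentages of marker sums given below were not divided by length, so longer genes weigh more in them. At E15.5, *Pdgfrb* had the highest level per kb, at 23.3 ± 2.97 CPM per kb (SD, n = 3), and *Pdgfd* the lowest, at 1.82 ± 0.497. *Pdgfb* (13.8 ± 1.03), *Pdgfa* (13.2 ± 0.656) and *Pdgfra* (12.3 ± 1.69) were closer to each other than their spread. *Pdgfrb* ranked first of the 6 in all libraries of E15.5, E18.5 and P5. This order depends on the merged lengths, which were 10.024 kb from 9 transcripts for *Pdgfra* and 5.478 kb from 2 for *Pdgfrb*. Before that division, *Pdgfra* was above *Pdgfrb* at E18.5, at 179 ± 6.33 and 152 ± 2.11 CPM. Which transcripts were expressed was not analysed. At P8 *Pdgfb* ranked first in all 3 libraries, at 43.0 ± 3.21 CPM per kb beside 39.5 ± 3.79 for *Pdgfrb*, with SDs about as large as the difference in means. *Pdgfc* and *Pdgfd* exchanged places, with *Pdgfc* above *Pdgfd* in all 6 embryonic libraries (5.48 ± 0.579 and 1.89 ± 0.341 CPM per kb at E18.5) and below it in all 6 postnatal libraries (0.745 ± 0.0825 and 4.95 ± 0.357 at P5).

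The make-up of the ligand transcripts shifted accordingly, and it is described without a test, since the shares rest on the values above. The 4 ligand genes together were at 35.0 ± 1.76 (E15.5), 37.2 ± 1.96 (E18.5), 61.3 ± 2.24 (P5) and 72.9 ± 5.61 (P8) CPM per kb (SD, n = 3). *Pdgfb* made up 39.3% ± 1.78 (E15.5), 41.5% ± 0.897 (E18.5), 56.3% ± 1.2 (P5) and 59.0% ± 0.439 (P8) of that sum. *Pdgfc* went from 18.0% ± 1.12 at E15.5 and 14.7% ± 1.17 at E18.5 to 1.21% ± 0.0957 at P5 and 1.05% ± 0.175 at P8. *Pdgfa* held 37.6% ± 0.474 at E15.5 and 32.7% ± 0.885 at P8, so that its share was lower after birth while its level was higher. The length used for *Pdgfa*, 3.119 kb, includes the 813 exon bases shared with *6330403L08Rik*. If reads there were left uncounted, its level per kb and its share are too low. The same holds for *Pdgfc* and the 147 exon bases it shares with *Gm16000*. *Pdgfd* held 5.18% ± 1.22 at E15.5 and 7.34% ± 1.12 at P8.

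Between the receptors, *Pdgfra* made up 34.6% ± 1.33 (E15.5), 39.2% ± 1.18 (E18.5), 26.0% ± 1.23 (P5) and 21.2% ± 1.46 (P8) of the summed receptor CPM per kb. The size of these shares also depends on the merged lengths, and the length of *Pdgfra* includes exon bases shared with overlapping genes. If reads over those bases were left uncounted, the level of *Pdgfra* per kb and its share are too low. The lowest embryonic library was at 33.4% and the highest postnatal library at 26.9%, so the groups did not overlap. In reads, 1.18 ± 0.0577 *Pdgfra* counts were found per *Pdgfrb* count at E18.5 and 0.494 ± 0.0432 at P8. Within a library such a ratio does not depend on the library's scaling. The *Pdgfa* counts per *Pdgfra* count were 0.338 ± 0.0656 (E15.5), 0.251 ± 0.0125 (E18.5), 0.446 ± 0.0216 (P5) and 0.701 ± 0.104 (P8). The *Pdgfb* counts per *Pdgfrb* count were 0.453 ± 0.0674, 0.423 ± 0.0327, 0.623 ± 0.0269 and 0.827 ± 0.0394 in the same order. The means of both ratios were lowest at E18.5 and highest at P8, with the E15.5 and E18.5 libraries overlapping for *Pdgfb* per *Pdgfrb* and separate for *Pdgfa* per *Pdgfra*. The *Pdgfd* counts per *Pdgfb* count lay between 0.0767 and 0.131 in all 12 libraries.

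**Figure D3:**
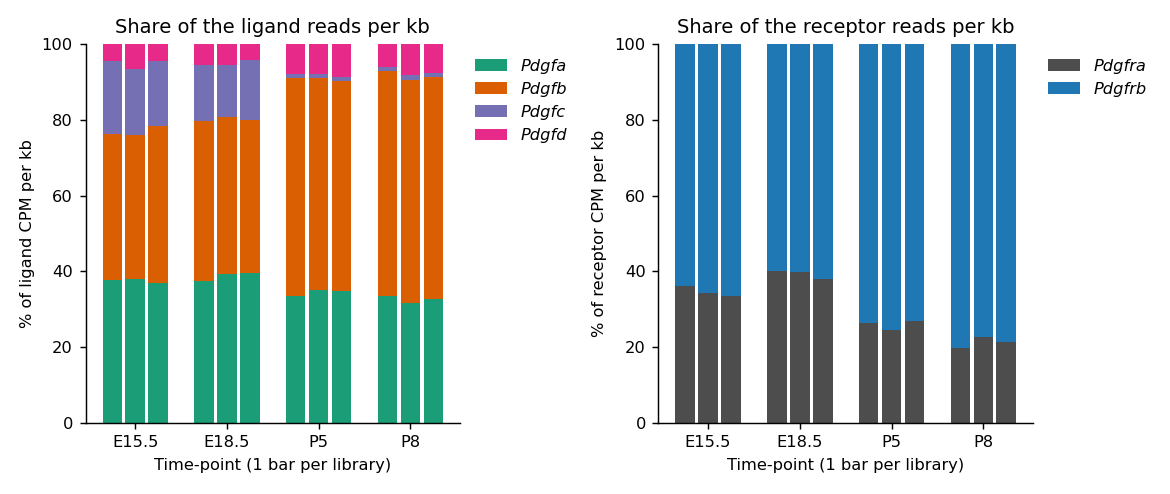
Share of each ligand gene in the summed ligand CPM per kb (left) and of each receptor gene in the summed receptor CPM per kb (right), in percent, with 1 bar per library in the order of replicates 1 to 3. The *Pdgfc* share was 13.6% to 19.3% before birth and 0.899% to 1.29% after it, and the *Pdgfra* share of the receptors was 33.4% to 40.1% before and 19.8% to 26.9% after.

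The cell types in which these genes are known to be expressed also changed in their marker levels, and those values are set beside the PDGF genes. The counts of markers stand beside those of all genes, of which 11.6% rose and 9.87% fell from E15.5 to E18.5, 35.4% rose and 35.7% fell across birth, and 9.75% rose and 8.21% fell from P5 to P8, with medians near 0. Across birth, 2795 of the 15994 genes tested rose past both cutoffs and 1494 fell past both. All 6 endothelial markers rose from E15.5 to E18.5 (11.6% of all genes) and again across birth (35.4%), 5 of them past both cutoffs in the second interval, and their summed level was 678 to 753 CPM at E15.5, 959 to 1040 CPM at E18.5, 2010 to 2130 CPM at P5 and 1740 to 2100 CPM at P8. *Pdgfb* corresponded to 7.95% ± 0.674 (E15.5), 6.38% ± 0.326 (E18.5), 6.97% ± 0.0912 (P5) and 9.6% ± 0.533 (P8) of that sum (SD, n = 3). From E15.5 to E18.5 the endothelial markers had a median log2 fold change of 0.46, beside 0.17 for *Pdgfb*, and from P5 to P8 of -0.17 with 2 of 6 falling, beside 0.30 for *Pdgfb*. The part of endothelial abundance in the *Pdgfb* levels was not tested.

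PDGF-A and PDGF-B are also stored in platelets and made by macrophages. The 6 megakaryocyte and platelet markers summed to 11.8 to 18.1 CPM in the embryonic libraries and 28.4 to 43.1 CPM in the postnatal libraries, and all 6 rose across birth (35.4% of all genes). Of the 6 macrophage markers, 5 rose across birth (35.4%) and 5 between P5 and P8 (9.75%), with summed levels of 59.1 to 71.6 CPM in the embryonic libraries, 156 to 211 CPM at P5 and 279 to 305 CPM at P8. The 8 alveolar epithelial markers, which stand for the known source of *Pdgfa*, all rose across birth (35.4% of all genes). Each rose past both cutoffs, as did 2795 of the 15994 genes tested. Their median log2 fold change was 3.49, beside 0.64 for *Pdgfa*. None of these markers was at 0 in all libraries of a time-point, and their part in the ligand levels was not tested.

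Of the 8 pericyte markers, 6 rose from E15.5 to E18.5 (11.6% of all genes), while 4 rose and 3 fell across birth (35.4% and 35.7%). Among the latter, *Higd1b* (log2 fold change 2.26, edgeR FDR = 2.8e-06) and *Trpc6* (2.54, edgeR FDR = 8.5e-09) rose, and *Abcc9*, a subunit of a potassium channel, fell (-1.30, edgeR FDR = 2.3e-06). The summed pericyte level was 241 to 279 CPM at E15.5, 311 to 358 CPM at E18.5, 385 to 391 CPM at P5 and 342 to 383 CPM at P8, and *Pdgfrb* corresponded to 49.3% ± 3.42, 45.0% ± 4.03, 59.4% ± 3.8 and 60.0% ± 6.81 of it. The 8 smooth muscle and myofibroblast markers summed to 831 to 983 CPM before and 939 to 1070 CPM after birth, with 4 of 8 rising (35.4% of all genes) and 4 not passing across birth.

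Of 8 lung fibroblast markers, 5 rose and 2 fell across birth (35.4% and 35.7% of all genes), led by *Limch1* (log2 fold change 2.28, edgeR FDR = 5.2e-09) and *Npnt*, which encodes the matrix protein nephronectin (1.96, edgeR FDR = 3.8e-08), while the proteoglycan gene *Dcn* fell (-1.38, edgeR FDR = 0.0011). Their summed level was 826 to 878 CPM at E15.5, 882 to 1020 CPM at E18.5, 2360 to 2450 CPM at P5 and 2060 to 2560 CPM at P8. *Pdgfra* corresponded to 18.4% ± 0.893 of this sum at E18.5 and 6.14% ± 0.257 at P5 (SD, n = 3). The fibroblast markers did not move as one, and *Fgf10* and *Wnt2* are named after their values were seen. *Fgf10*, a growth factor gene of the lung mesenchyme, was at 36.4 ± 0.852 (E15.5), 49.5 ± 4.82 (E18.5), 35.3 ± 1.1 (P5) and 35.1 ± 5.83 CPM (P8), and like *Pdgfra* it rose between the embryonic ages (log2 fold change 0.45, edgeR FDR = 0.011), and it fell across birth (-0.40, edgeR FDR = 0.0045). The Wnt ligand gene *Wnt2* did not pass across birth (0.03, edgeR FDR = 0.76) and fell between P5 and P8 (-0.33, edgeR FDR = 0.017). The transcription factor gene *Tcf21* rose across birth (1.07, edgeR FDR = 5.1e-06) and fell between P5 and P8 (-0.45, edgeR FDR = 0.024), the interval in which *Pdgfra* fell. *Limch1* and *Npnt* carry most of the sum after birth, at 684 ± 24.6 and 1050 ± 19.2 CPM at P5. The percentage that *Pdgfra* makes of the sum after birth therefore rests mainly on these genes, and which cells expressed them was not tested. No marker of the pericyte, smooth muscle or fibroblast lists was at 0 in all libraries of a time-point, and the part of cell type abundance in the receptor levels was not tested.

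**Figure D4:**
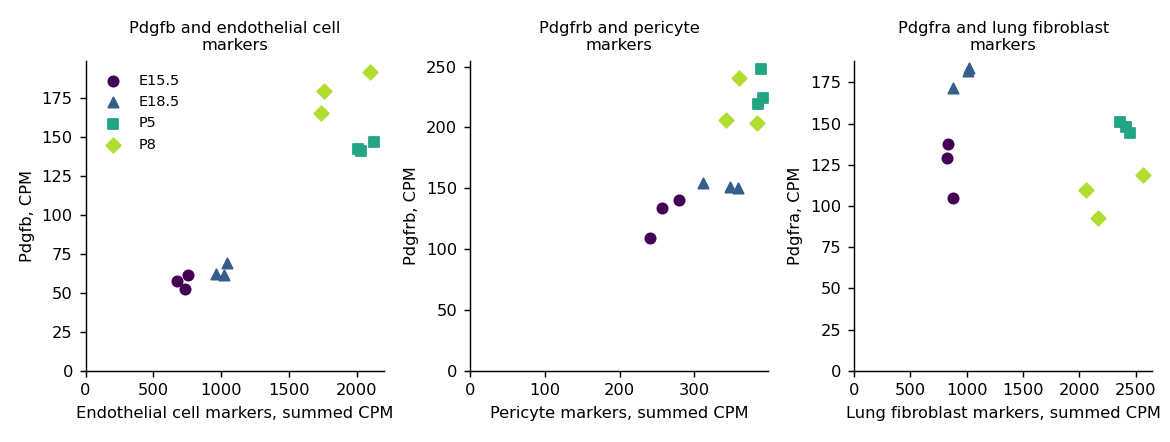
*Pdgfb*, *Pdgfrb* and *Pdgfra* (vertical axes, CPM) against the summed CPM of 6 endothelial, 8 pericyte and 8 lung fibroblast markers (horizontal axes) in the 12 libraries, with a symbol for each time-point. *Pdgfb* was higher at P8 than at P5 while the endothelial sum was not, and *Pdgfra* was lower at P8 than at E18.5 while the fibroblast sum was higher. *Limch1* and *Npnt* carry most of the fibroblast sum after birth, which cells expressed them was not tested, and the fibroblast markers did not move as one.

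Other genes of the pathway were followed in 4 lists, each read against all genes, of which 35.4% rose and 35.7% fell between E18.5 and P5 with a median log2 fold change near 0. The first list held 12 genes whose products process or bind PDGFs, and 7 rose and 3 fell (median 0.41). *Plat*, the tissue plasminogen activator that can cleave PDGF-C, rose from 21.0 ± 2.25 CPM at E18.5 to 65.4 ± 4.8 CPM at P5 (log2 fold change 1.72, edgeR FDR = 1.7e-08), over the interval in which its substrate gene fell. *St14*, whose product matriptase can cleave PDGF-D, fell by 0.57 (edgeR FDR = 1.1e-05), and *Plau*, the urokinase gene, did not pass (-0.08, edgeR FDR = 0.65). *Pcsk6*, a proprotein convertase gene of the furin family, fell from 69.0 ± 7.7 to 13.1 ± 1.87 CPM (-2.31, edgeR FDR = 1.4e-08), while *Furin* (0.28, edgeR FDR = 0.0031) and *Pcsk5* (1.03, edgeR FDR = 1.2e-06) rose. *Sparc*, a matrix protein that binds PDGF-B, rose by 1.38 (edgeR FDR = 2.2e-08) from 1190 ± 49.5 to 2920 ± 272 CPM. *Pdgfrl*, a gene with sequence similarity to the receptors and no kinase domain, rose by 1.54 (edgeR FDR = 1.4e-07). *Furin*, *Pcsk5*, *St14* and *Plau* were added to those named by the rule after their values were seen.

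The second list held 31 genes for proteins that carry the receptor signal, and 14 rose and 8 fell (median 0.14). Past both cutoffs, 2 of the 31 rose and 0 fell, beside 2795 rising and 1494 falling of all 15994 genes tested. Among the 2 was *Pik3cb*, a catalytic subunit of phosphoinositide 3-kinase, which went from 12.2 ± 1.96 to 38.1 ± 3.15 CPM (log2 fold change 1.73, edgeR FDR = 1.4e-07). The summed level of the 31 was 3170 to 3300 CPM in the embryonic and 3080 to 3330 CPM in the postnatal libraries.

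The third list held 12 genes for proteins that dampen receptor signalling, and 7 rose and 3 fell (median 0.42). *Grb10*, an imprinted adaptor gene, fell from 1470 ± 83.0 to 326 ± 17.0 CPM (log2 fold change -2.08, edgeR FDR = 3.9e-10), and *Spry1*, the Sprouty antagonist of receptor tyrosine kinase signalling, rose from 38.5 ± 4.87 to 125 ± 4.03 CPM (1.79, edgeR FDR = 3.3e-08). The list's summed level was lower after birth, at 989 to 1120 CPM against 1950 to 2120 CPM, while its median gene was higher, since *Grb10* held most of the embryonic sum.

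The fourth list held 14 immediate early genes, which growth factors and many other stimuli induce, and 8 rose and 4 fell (median 0.45). *Klf4* rose to 74.0 ± 3.26 CPM at P5 (log2 fold change 2.35, edgeR FDR = 4.6e-08) and *Egr2* from 0.335 ± 0.142 to 3.29 ± 0.509 CPM (3.38, edgeR FDR = 4.5e-05). *Myc* fell from 40.9 ± 11.2 to 14.1 ± 0.534 CPM (-1.45, edgeR FDR = 4e-05) and *Egr3* from 2.19 ± 0.476 to 0.51 ± 0.41 CPM (-1.99, edgeR FDR = 0.0061). Members of the *Egr* family thus moved in opposite directions across birth.

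**Figure D5:**
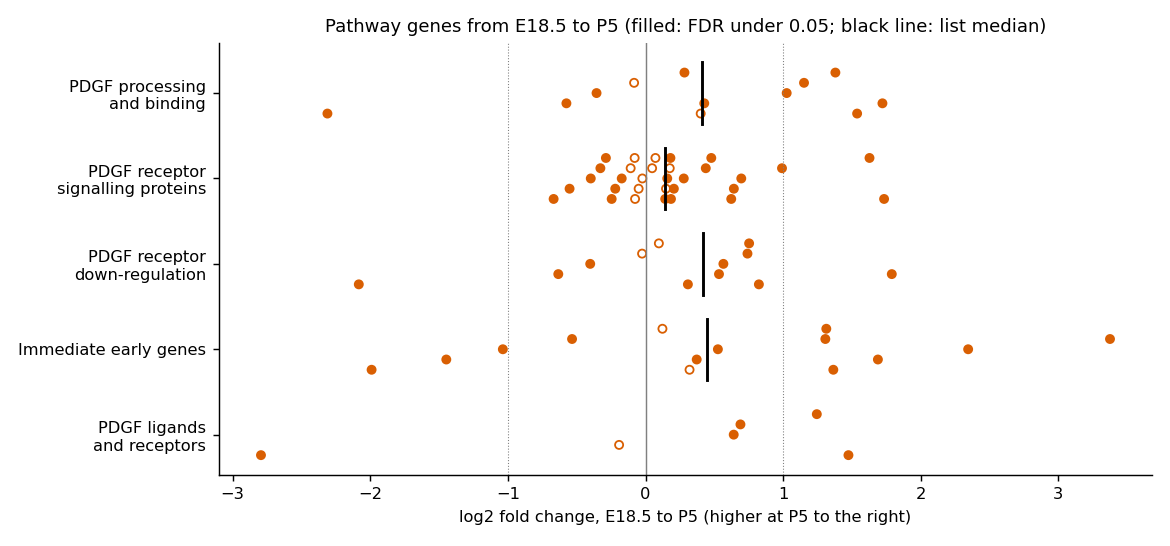
Changes between E18.5 and P5 on the log2 scale (horizontal axis) of each gene in 4 lists of the PDGF pathway and of the 6 PDGF genes, with 1 point per gene and its height within a band set only for legibility. Filled points have an FDR under 0.05, dotted lines mark the fold change cutoff of 1, and black lines are list medians of 0.41, 0.14, 0.42 and 0.45 from top to bottom.

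In the interval before, 11.6% of all genes rose and 9.87% fell, and in the interval after, 9.75% rose and 8.21% fell. From E15.5 to E18.5, 4 rose and 1 fell of the processing and binding genes, 6 rose and 4 fell of the signalling genes, 0 rose and 1 fell of the down-regulation genes, and 2 rose and 1 fell of the immediate early genes. None of these was past both cutoffs, beside 3.04% of all genes. From P5 to P8 the numbers that rose and fell were 2 and 1, 3 and 5, 2 and 1, and 4 and 0 in the same order. The single gene of these lists past both cutoffs in that interval, beside 2.96% of all genes, was the transcription factor gene *Egr1* (log2 fold change 1.69, edgeR FDR = 0.0012). *Egr1* had fallen from E18.5 to P5 (-1.04, edgeR FDR = 0.001) and is named after its values were seen.

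For each PDGF gene, the genes with the most similar course were found by the root mean square (RMS) difference of their centred log2 CPM over the 12 libraries, among 10615 genes with a mean of at least 10 CPM. Nearest to *Pdgfc* were *Dctd* (RMS 0.175, Pearson r = 0.994), *Skp2* (0.18, r = 0.995) and *Rps6ka6* (0.188, r = 0.993). *Dctd*, which encodes deoxycytidylate deaminase, went from 25.4 ± 3.91 CPM at E18.5 to 2.96 ± 0.235 CPM at P5 (log2 fold change -3.01, edgeR FDR = 1.4e-09). *Skp2*, a subunit of a ubiquitin ligase, went from 101 ± 10.5 to 17.8 ± 2.06 CPM (-2.43, edgeR FDR = 4.2e-09).

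Nearest to *Pdgfd* were *Pitpnm1* (RMS 0.154), the circadian clock gene *Per3* (0.156) and *Dnase1l1* (0.168). Nearest to *Pdgfb* were *Synpo*, an actin-binding protein gene (0.086), the interleukin-4 receptor gene *Il4ra* (0.089) and the phospholipid transfer protein gene *Pltp* (0.094). Nearest to *Pdgfra* were the DNA polymerase gene *Rev3l* (0.094, r = 0.961), the transcription factor gene *Nfib* (0.098, r = 0.945) and the DNA repair gene *Ercc5* (0.122, r = 0.926). *Nfib* was at 226 ± 47.2 (E15.5), 305 ± 26.6 (E18.5), 260 ± 10.3 (P5) and 187 ± 21.2 CPM (P8), with its highest mean at E18.5 as for *Pdgfra*.

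*Pdgfa* was nearest to the thromboxane receptor gene *Tbxa2r* (RMS 0.076) and to *Arhgap1* (0.08), and *Pdgfrb* to *Ppfibp1* (0.069), *Mr1* (0.081) and *Rnf141* (0.082). Among the PDGF genes themselves, the pair with the most similar course was *Pdgfa* and *Pdgfrb* (RMS 0.152), followed by *Pdgfb* and *Pdgfd* (0.225), and the pair furthest apart was *Pdgfc* and *Pdgfd* (2.238). Of the 10615 genes compared, 1423 lay within an RMS of 0.25 of *Pdgfa*, 1457 of *Pdgfrb*, 756 of *Pdgfra* and 362 of *Pdgfb*. For *Pdgfd* and *Pdgfc* the numbers were 124 and 8. Except for *Pdgfc*, a course this similar was therefore shared with many genes outside the PDGF system. These are descriptions over 12 libraries that fall into 4 time-points, and the same libraries enter each.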

How the data were processed

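RNA of 12 whole mouse lungs was sequenced (TruSeq libraries, paired-end reads). Per the labels and the study's methods, the authors aligned reads to mm10 with TopHat2 2.1.1 and Bowtie2 2.3.4, counted unique alignments on Gencode genes with HTSeq 0.10.0 and deposited the raw counts of the genes they kept, without normalization. The authors also deposited CPM values, each a count divided by the mapped reads of its library. The CPM levels printed here carry no TMM scaling (factors of 0.95 to 1.036), so their ratios can differ from the fold changes. Steps in the CPM gave whole reads (tolerance 0.1) for 100.0% of values and 48436716 to 62279460 mapped reads per library. The counts were the same in both tables for 16152 of 16152 genes. No 2 replicates agreed within sampling noise, and 0 columns belonged to samples outside the series. The deposited splicing table lists events without genes and was not used.

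Counts were fitted in R 4.3.3 with edgeR 4.0.16 (quasi-likelihood test after TMM, 1 mean per time-point over 12 libraries, a minimum of 1 CPM in 3 or more libraries, Benjamini-Hochberg over all genes), and a gene was called at an absolute log2 fold change above 1 and an FDR under 0.05. The code was tested on simulated data. Alternatives were other normalizations, DESeq2 1.42.0, edgeR's likelihood ratio test, no filter, only the libraries of the 2 time-points compared, a replicate block, each library left out and, chosen after seeing the data, reads recovered from the CPM and the thymus-positive or heart-positive libraries left out. The fit on recovered reads called 496, 4376, 476 and 5263 genes from E15.5 to E18.5, E18.5 to P5, P5 to P8 and E15.5 to P8.

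The PDGF genes and all lists were chosen with earlier results of these data known. Named were the 6 genes, the 3 genes most like each, and from each list up to 4 genes past both cutoffs with the largest change from E18.5 to P5, of which those that bear on the PDGF genes are printed. Some named items are not reported here. Sequences are from RefSeq (GRCm38.p6), from which windows of 4 PDGF genes were taken.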

Additional observations from a re-analysis of the deposited data

How the results depend on the processing

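No log2 fold change past a threshold changed sign in any alternative. The fold change cutoff mattered most. At an FDR under 0.05 alone, 1, 5, 2 and 5 PDGF genes were called from E15.5 to E18.5, E18.5 to P5, P5 to P8 and E15.5 to P8 (edgeR), in place of 0, 3, 0 and 3, with *Pdgfra* at 0.54 in the first, *Pdgfa* at 0.64 and *Pdgfrb* at 0.69 in the second, *Pdgfb* at 0.30 and *Pdgfra* at -0.48 in the third and *Pdgfa* at 0.93 and *Pdgfrb* at 0.84 in the fourth. From E15.5 to P8, *Pdgfa* was at 1.09 without the thymus-positive libraries and between 0.88 and 1.02 with each library left out, and passed both cutoffs without P8 replicate 2. With the replicate number as a block, the calls were again 0, 3, 0 and 3, with 1, 5, 2 and 5 at the FDR alone. Deviations from the time-point means correlated at -0.353 to 0.296 between same-numbered libraries. Libraries with different numbers were not compared in this way, so whether the numbers pair libraries was not settled. Over all genes, the count of calls moved by more than 1.5 times in the intervals before and after the one that holds birth. In place of 487 for E15.5 and E18.5, it was 179 without the heart-positive libraries, 291 with only the libraries of these 2 time-points, and 310 and 284 without E18.5 replicates 1 and 2. In place of 474 for P5 and P8, it was 90 without the thymus-positive libraries, 268 and 198 without P8 replicates 1 and 2, and 274, 309 and 258 without P5 replicates 1, 2 and 3. The depth limits *Pdgfd* before and *Pdgfc* after birth, at 251 to 384 and 181 to 261 reads per library.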
